A study of Mus musculus with 8 samples.

Results

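Resting alveolar macrophages were taken as the cells of dissociated mouse lung tumours with alveolar macrophage transcripts but few detected activation or proliferation genes. Of 24838 cells kept in the 4 single-cell libraries, 2825 cells (11.4%) met this rule. Cells were kept from 500 gene UMIs (unique molecular identifiers, 1 per captured RNA molecule) and 250 genes upwards, where no more than 15% of UMIs were mitochondrial. It counted as resting when at least 4 of the 7 markers Chil3, Ear2, Fabp1, Krt79, Plet1, Car4 and Ltc4s were detected, with a sum of at least 10 UMIs that was above the sum of C1qa, C1qb and C1qc. It also had at most 3 UMIs of Krt7, Krt8 and Krt18 together, at most 2 of the 6 activation genes Inhba, Mmp12, Ccl17, Hilpda, Slc7a2 and Mmp19 detected, and at most 1 of the 5 proliferation genes Mki67, Top2a, Birc5, Pclaf and Cdk1. These 24 genes chose the cells, so their levels are descriptions and not findings.

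The study asked whether more Malat1 in tumour cells changes the tissue around them. Malat1 is a long nuclear RNA. The mA1 group held 4 lung adenocarcinomas in which tumour cells received CRISPR activation (a Cas protein that switches a gene on without cutting) with guide RNAs against Malat1, and the Con group held 4 with guide RNAs against Tomato, a fluorescent protein gene. Both groups were KPC mice, as the sample labels call them (the series text says KP), given lentivirus through the windpipe, and in both the activation system was present from tumour initiation. The largest tumours were taken 16 weeks later, so small lesions are not represented. The sources used here give neither ages nor sexes, nor the promoter that confines activation to tumour cells. The macrophages are host cells that were not themselves the target. Cells of each tumour were marked with 1 of 2 DNA barcodes (hashtags) carried by antibodies to the surface proteins CD45 and MHC class I, then pooled, and each group gave 2 libraries of 2 hashtags. The 2 barcodes are shown, whole and in capitals, because they define the tumours used as replicates below.
hashtag 1: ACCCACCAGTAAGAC
hashtag 2: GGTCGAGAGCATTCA

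Alveolar macrophages live on the air side of the lung's gas-exchange surface. They take up spent surfactant and inhaled particles and are a lipid-handling cell. GM-CSF and TGF-beta signals keep up their identity, partly through the lipid-sensing transcription factor PPAR-gamma (Pparg). In lung tumours some of them switch on matrix proteases and chemokines, which is the activated gate used here for contrast, while others keep the resting profile.

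The mA1 libraries held 10168 and 4939 barcodes with 73377111 and 48319272 gene UMIs, and the Con libraries 8842 and 7135 barcodes with 74996867 and 54397659 UMIs. Of these, 7735 and 3898 mA1 cells and 7397 and 5808 Con cells were kept, and 86.0% to 90.7% of kept cells per library carried exactly 1 hashtag. No barcode was a resting cell in 2 libraries, although 10 resting cells shared a barcode with some kept cell of another library. Con library 2 stood apart from the other 3 libraries: its resting cells summed to 1589 and 1473 CPM (UMIs per 1000000) over Xist and 4 Y-linked genes, all of it Xist, against 89.3 to 132 CPM in the other 6 tumours, where Xist was at most 3.96 CPM. Sex and library cannot be told apart there. Whether the 2 hashtags of a library came from separate mice is not stated, so p-values measure the spread between hashtagged tumours.

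The resting gate gave 945 and 654 cells in mA1 libraries 1 and 2, and 847 and 379 in Con libraries 1 and 2. Of all resting cells, 2641 carried exactly 1 hashtag, 122 carried both and 62 none. The 62 had a median of 1977 UMIs, against 10802 over all resting cells. The activated gate held 3064 cells, the proliferating gate 1450 and the C1q macrophage gate 909. The edge between resting and activated ran through the densest part of the distribution. Inside it, 238 cells had 0 of the 6 activation genes, 790 had 1 and 1797 had 2. Just outside it, 1843 cells had 3. Median UMIs climbed along the same axis, with 5443, 9230.5 and 12267 UMIs at 0, 1 and 2 genes and 15068 at 3. Resting and activated therefore differ in depth as well as in the genes of the rule: 10802 median UMIs in resting cells and 16737.5 in activated cells. At the other edges, 242 cells had exactly 4 markers and 151 otherwise matching cells had 3. By marker UMIs, 49 cells had 10 to 14 against 38 with 5 to 9. Resting cells did not lack the activation genes: Slc7a2 was detected in 77.1% of them and Mmp12 in 57.1%, against 98.2% and 96.0% of activated cells. Ccl17 was in 7.61% of resting cells, Hilpda in 6.97%, Mmp19 in 6.16% and Inhba in 0.283%.

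**Figure D1:**
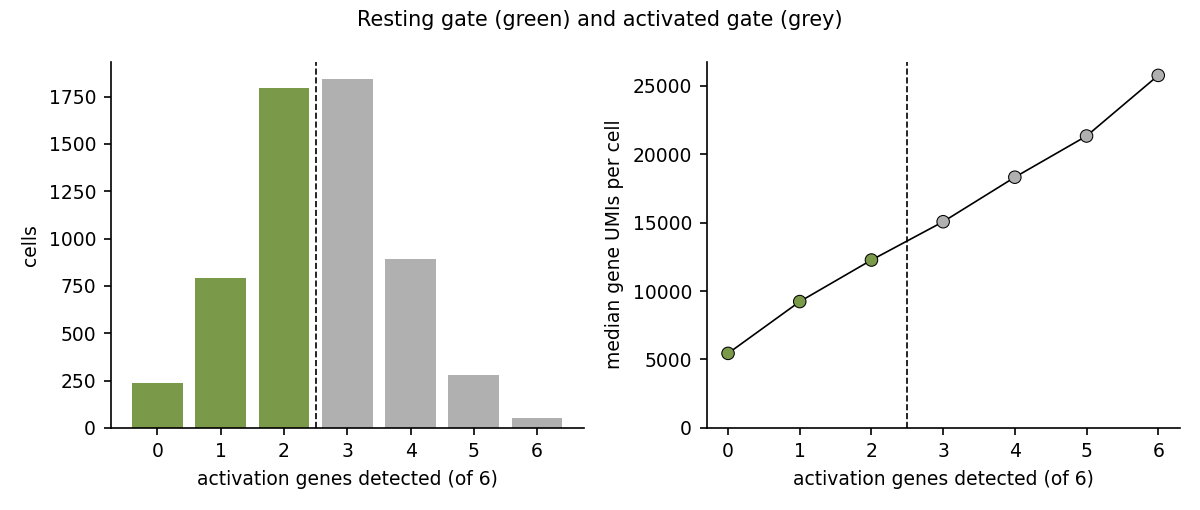
Left, number of alveolar macrophages by how many of the 6 activation genes were detected, with the resting gate in green and the activated gate in grey. Right, median gene UMIs per cell at each count. The dashed line marks the rule, with 1797 cells just inside it and 1843 just outside, and median UMIs run from 5443 at 0 genes to 25765 at 6.

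The alveolar macrophage part of the label was checked against genes that the rule did not use. This was not a check of the resting part. Pparg, for example, was detected in 61.4% of resting and 70.6% of activated cells. Mrc1, the mannose receptor, averaged 679 ± 69.5 CPM over the 8 tumours (SD) and was detected in 93.4% of resting cells, against 1.93% of T cells. Siglecf, the sialic acid receptor that marks alveolar macrophages in mice, averaged 103 ± 10.8 CPM and was detected in 56.4% of them. Pparg averaged 136 ± 31.1 CPM and Csf2ra, the GM-CSF receptor alpha chain, 340 ± 29.5 CPM. These receptors and factors were present in every tumour. Of the interstitial and monocyte-derived macrophage factors, Maf averaged 2.90 CPM, against 244 CPM in T cells, and the apoptosis inhibitor Cd5l had 0 UMIs in all 8 tumours. Other transcripts of such macrophages were present. The 6 C1q macrophage markers summed to 93.5 to 234 CPM in mA1 tumours and 86.03 to 251 CPM in Con tumours. The fractalkine receptor Cx3cr1 averaged 85.99 CPM and the lipoprotein gene Apoe 55.6 CPM. Whether these came from other macrophages was not tested. The scavenger receptor Marco was the least even of the alveolar macrophage surface genes. It had 82.2, 87.5, 75.0 and 64.6 CPM in the mA1 tumours and 95.1, 32.5, 227 and 110 CPM in the Con tumours, in the order library 1 hashtags 1 and 2, then library 2 hashtags 1 and 2. This order is used for all values per tumour below. The 2 groups overlapped, and the highest value was in Con library 2.

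Some of the marker RNA was also found where it should not be. Chil3, which encodes a secreted chitinase-like protein, was in 99.9% of resting cells at 12733 CPM and in 34.7% of T cells at 102 CPM, although T cells were shallower, with a median of 3793.5 UMIs. The surfactant RNAs below are read with that background in mind. The other markers were detected in 97.9% (Ear2), 97.2% (Plet1), 93.9% (Ltc4s), 87.6% (Car4), 75.2% (Fabp1) and 21.4% (Krt79) of resting cells and in at most 4.17% of T cells. Levels are 3′ UMI counts in CPM, in which each molecule counts once whatever its length.

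By level, the leading nuclear genes outside the rule were those of iron storage, lysozyme and the cytoskeleton. Fth1, the ferritin heavy chain, averaged 19978 ± 2771 CPM, Lyz2, lysozyme, 19254 ± 2143 CPM and Ccl6, a chemokine made by resident lung macrophages, 6752 ± 328 CPM (SD over 8 tumours). Ccl6 was the steadiest of these, with a range of 6293 to 7221 CPM. Gm42418 was the least steady, from 5367 to 19380 CPM, and this gene model overlaps ribosomal RNA, so its level is uncertain as a measure of mRNA.

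Set against all other kept cells, the genes with the highest ratios were Kcnip4, a potassium channel partner, at 3.09-fold, Fpr1, the formyl peptide receptor, at 3.00-fold and Acot1, a fatty acyl-CoA thioesterase, at 2.83-fold. Il18 (2.64-fold), Pparg (2.49-fold), the fatty acid carrier Fabp4 (2.46-fold) and the RNase Ear1 (2.42-fold) followed. The other cells in these ratios include activated and proliferating alveolar macrophages, whose part in the size of the ratios was not tested. The ratios are a description of cells that were chosen by correlated genes.

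Relative to activated cells, resting cells had less of the chemokine and stress genes that the rule did not name. H2-M2, a nonclassical MHC class I gene, averaged 12 CPM in resting and 84.3 CPM in activated cells, a ratio of 0.143. Cxcl2, a neutrophil chemokine, averaged 219 CPM in resting and 710 CPM in activated cells, a ratio of 0.309 that ran from 0.127 to 0.690 across tumours. Ccl4 (0.316), the cell cycle inhibitor Cdkn1a (0.322), the stress factor Atf3 (0.328), Ier3 (0.330) and the cytokine Osm (0.343) had similar ratios. The highest ratios, from 3.16 to 4.82, belonged to S100a9, Igha, Jchain, S100a8 and Igkc, which are genes of neutrophils and plasma cells. Histone genes Hist1h1e and Hist1h1d followed at 2.41-fold and 2.39-fold. No test was made, since the gates were cut from the same cells.

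Among single resting cells transcripts of other cell types carried much of the excess variance. Igkc had 82.6% of its UMIs, S100a9 94.0% and the haemoglobin gene Hbb-bs 94.9% in the top 1% of cells. Some genes that macrophages themselves can make were also concentrated. The interferon-induced chemokine Cxcl10 had 87.9% of its UMIs in the top 1% of cells and was detected in 2.49% of cells. The fractalkine receptor Cx3cr1 had 59.8% in the top 1% and was detected in 6.84%. Cxcl2 was broader, with 37.5% of UMIs in the top 1% and detection in 33.2% of cells. By contrast Lyz2 had 4.16% and Malat1 4.78% of UMIs in the top 1% of cells.

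Resting cells made up a share of each tumour that varied widely within the groups. They were 14.2%, 12%, 21.0% and 15.7% of singly hashtagged cells in the mA1 tumours and 18.0%, 10.0%, 7.01% and 6.01% in the Con tumours. The groups overlapped, and the 2 lowest values were both of Con library 2. The means were 15.7% ± 3.82 in mA1 and 10.3% ± 5.44 in Con (SD, n = 4 each), a difference of 5.47 percentage points that did not pass an exact two-sided permutation test over tumours (p = 0.171; the smallest p that 70 arrangements allow is 0.0286). Without Con library 2 the difference was 1.71 points (exact permutation p = 0.8). This test and the other permutation tests over tumours treat tumours as independent, although 2 came from each library. With whole libraries as the samples and all kept cells, the difference was 5.51 points (exact permutation p = 0.333, n = 2 each). So few libraries cannot give a p under 0.05, so that test cannot decide the question. Activated cells had a difference of the same sign, 15.1% in mA1 and 11.2% in Con (exact permutation p = 0.257). Dissociation and dead cell removal stand between these shares and the tissue.

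As a share of alveolar macrophages (resting, activated and proliferating gates together) the groups lay closer. Resting cells were 41.8%, 33.1%, 47.6% and 40.4% in the mA1 tumours and 47.5%, 31.1%, 48.9% and 28.5% in the Con tumours. The Con values spanned the mA1 values. The means differed by 1.67 points, 40.7% ± 5.96 in mA1 and 39.0% ± 10.7 in Con (SD, n = 4 each; exact permutation p = 0.8). Median depth moved in the same direction as the share of all cells: 12335 ± 1811 UMIs per resting cell in mA1 and 9780 ± 832 in Con (SD, n = 4 each; exact permutation p = 0.0571). The part of depth in the other results was not tested, apart from the thinned counts below.

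A chemokine state was more frequent in resting cells than an interferon state. Both were read after thinning each cell to 3000 UMIs and leaving out 175 shallower resting cells. The chemokine state needed 2 or more of Cxcl1, Cxcl2, Cxcl3, Ccl3, Ccl4 and Tnf. It held 13.9%, 12.7%, 5.51% and 7.36% of resting cells in the mA1 tumours and 11.4%, 12.7%, 10.4% and 8.79% in the Con tumours. Both mA1 library 2 values lay under every other tumour. The mean difference was -0.949 points (exact permutation p = 0.657). T cells showed 2.49% and activated macrophages 25.7%. Without thinning the shares were 16.2% to 34.5% in mA1 tumours and 20.1% to 25.4% in Con tumours. An exact 95% binomial interval for mA1 library 2 hashtag 1 ran from 3.35% to 8.47% and covers counting error alone.

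The interferon state needed 2 or more of Ifit1, Ifit2, Ifit3, Isg15, Rsad2, Cxcl10, Oasl1 and Usp18. It held 0%, 0.402%, 2.61% and 0% of resting cells in the mA1 tumours and 0.901%, 0.957%, 2.07% and 1.10% in the Con tumours. The highest mA1 tumour had 9 such cells of 345, with an exact binomial interval of 1.20% to 4.89%. The 2 mA1 tumours at 0 held 345 and 258 cells, for which 3 counts of the total give limits of 0.870% and 1.16% and the exact binomial interval reaches 1.06% and 1.42%. T cells, which can express these genes themselves, had 2.46% and activated macrophages 0.919%. The mean difference was -0.505 points (exact permutation p = 0.486). Without thinning the shares were 1.42% to 5.70% in mA1 tumours and 1.41% to 4.72% in Con tumours.

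**Figure D2:**
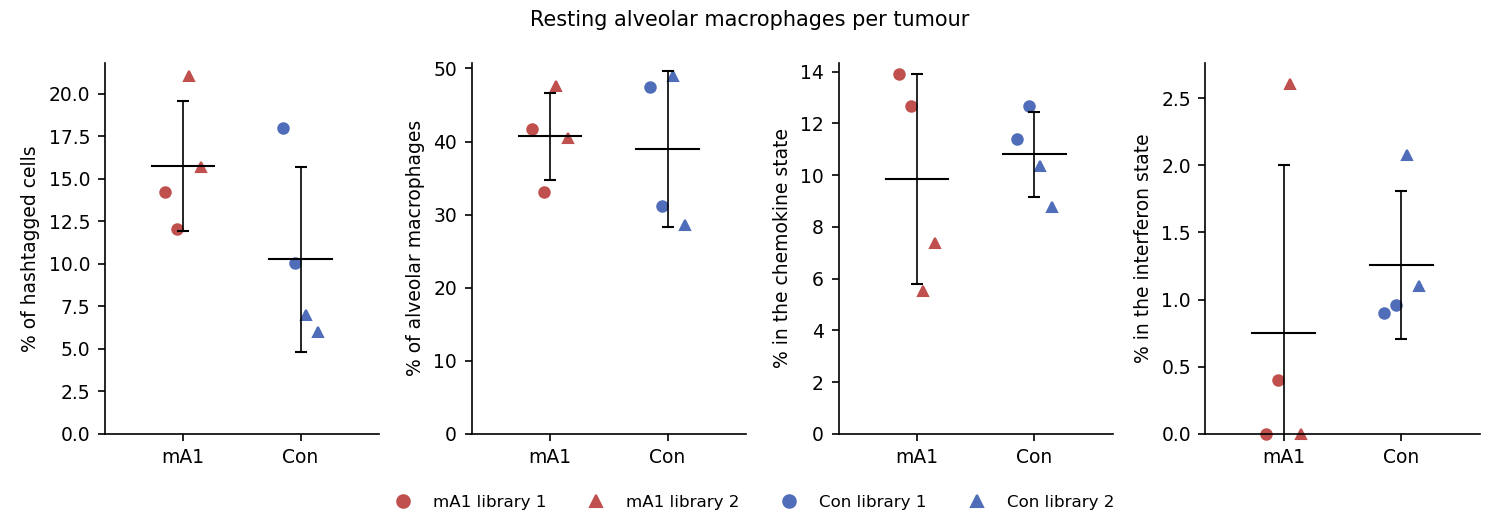
Shares per tumour, mA1 in red and Con in blue, circles for library 1 and triangles for library 2, with the mean and SD of 4 tumours. From left, resting cells as % of hashtagged cells (means 15.7 and 10.3), as % of alveolar macrophages (40.7 and 39.0), and resting cells in the chemokine and interferon states after thinning. The groups overlap in all 4 panels.

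No difference in the targeted RNA was detected between groups in these cells. Malat1 had 14171, 11133, 17667 and 14521 CPM in resting cells of the mA1 tumours and 13627, 13174, 17382 and 16566 CPM in those of the Con tumours. Library 2 was the higher library in both groups, and the groups overlapped. The means were 14373 ± 2671 and 15187 ± 2098 CPM (SD, n = 4 each), a log2 fold change of -0.05 with SE 0.13 (edgeR adjusted p = 0.984). Its neighbour Neat1, another nuclear RNA, averaged 594 ± 44.7 CPM in mA1 and 631 ± 90.4 CPM in Con (log2 -0.05). In keratin-gated epithelial cells, which include the tumour cells, Malat1 averaged 24393 CPM in mA1 and 22936 CPM in Con, from 19017 to 33921 in mA1 and from 15769 to 26374 in Con. The groups overlapped there too, so the targeted RNA does not separate the labels in these files and the groups are named by their labels.

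Very few genes distinguished resting macrophages of mA1 tumours from those of Con tumours. UMIs of resting cells were summed per tumour, 1011095 to 6138782 UMIs each, and tested with edgeR's quasi-likelihood test over 9906 genes. The test called 1 gene (0.0101%) at an adjusted p under 0.05, while 586 genes (5.92%) had an unadjusted p under 0.05. The tumours of the groups did not overlap for 380 genes (3.84%). The call count depends on the libraries. DESeq2 called 17 genes, no gene was called when whole libraries were the replicates (221 at unadjusted p under 0.05), and leaving out mA1 library 1, mA1 library 2, Con library 1 or Con library 2 gave 38, 0, 349 or 14 genes.

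The 1 gene was Sftpb, which encodes surfactant protein B of type II epithelial cells (chr6:72304610-72314373, mm10). It had 2.91, 4.4, 4.58 and 3.82 CPM in resting cells of the mA1 tumours, against 11.5, 14, 12.2 and 10.9 CPM in those of the Con tumours. All 4 mA1 tumours lay under all 4 Con tumours, a log2 fold change of -1.61 with SE 0.22 (edgeR adjusted p = 0.0113). The call did not hold without mA1 library 2 (adjusted p = 0.0806) or with libraries as replicates (adjusted p = 0.9998), nor without hashtag 1 of mA1 library 1 (0.0662) or hashtag 2 of mA1 library 2 (0.0732). Lymphocytes, which should lack the gene, showed levels of the same order that were also lower in mA1. T cells averaged 5.68 CPM in mA1 and 16.1 CPM in Con, and B cells 2.48 and 12.6 CPM. Epithelial cells averaged 5265 CPM in mA1 and 6810 CPM in Con.

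Other epithelial transcripts lay with it. Sftpa1, surfactant protein A, averaged 2.68 ± 0.197 CPM in mA1 and 5.92 ± 0.326 CPM in Con, and S100a14, an epithelial calcium-binding protein, 0.827 ± 0.353 and 3.82 ± 0.498 CPM (SD, n = 4 each). Neither was called (edgeR adjusted p = 0.317 and 0.145). T cells again had 1.83 CPM of Sftpa1 in mA1 and 6.10 CPM in Con. The 10 tumour and type II epithelium markers summed to 51.2 to 70.005 CPM in mA1 tumours and 86.2 to 117 CPM in Con tumours, without overlap, and 7 of the 8 tested had a negative fold change. The part of epithelial RNA in the result was not tested. T cells in Con had at least the level of resting cells in Con for 5 of the 10 lower genes with the smallest p: Sftpb, S100a14, Gpr171, Sftpa1 and Clu.

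Clu, clusterin, an extracellular chaperone, was the most abundant of those 5. It had 18.0, 16.5, 9.58 and 11.7 CPM in mA1 tumours and 32.7, 25.5, 57.0 and 46.5 CPM in Con tumours (chr14:65968483-65981548). The groups did not overlap, but the gene was not called (log2 -1.44, SE 0.28, edgeR adjusted p = 0.320). T cells averaged 17.4 CPM in mA1 and 54.0 CPM in Con, and activated macrophages 12.7 and 40.4 CPM.

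**Figure D3:**
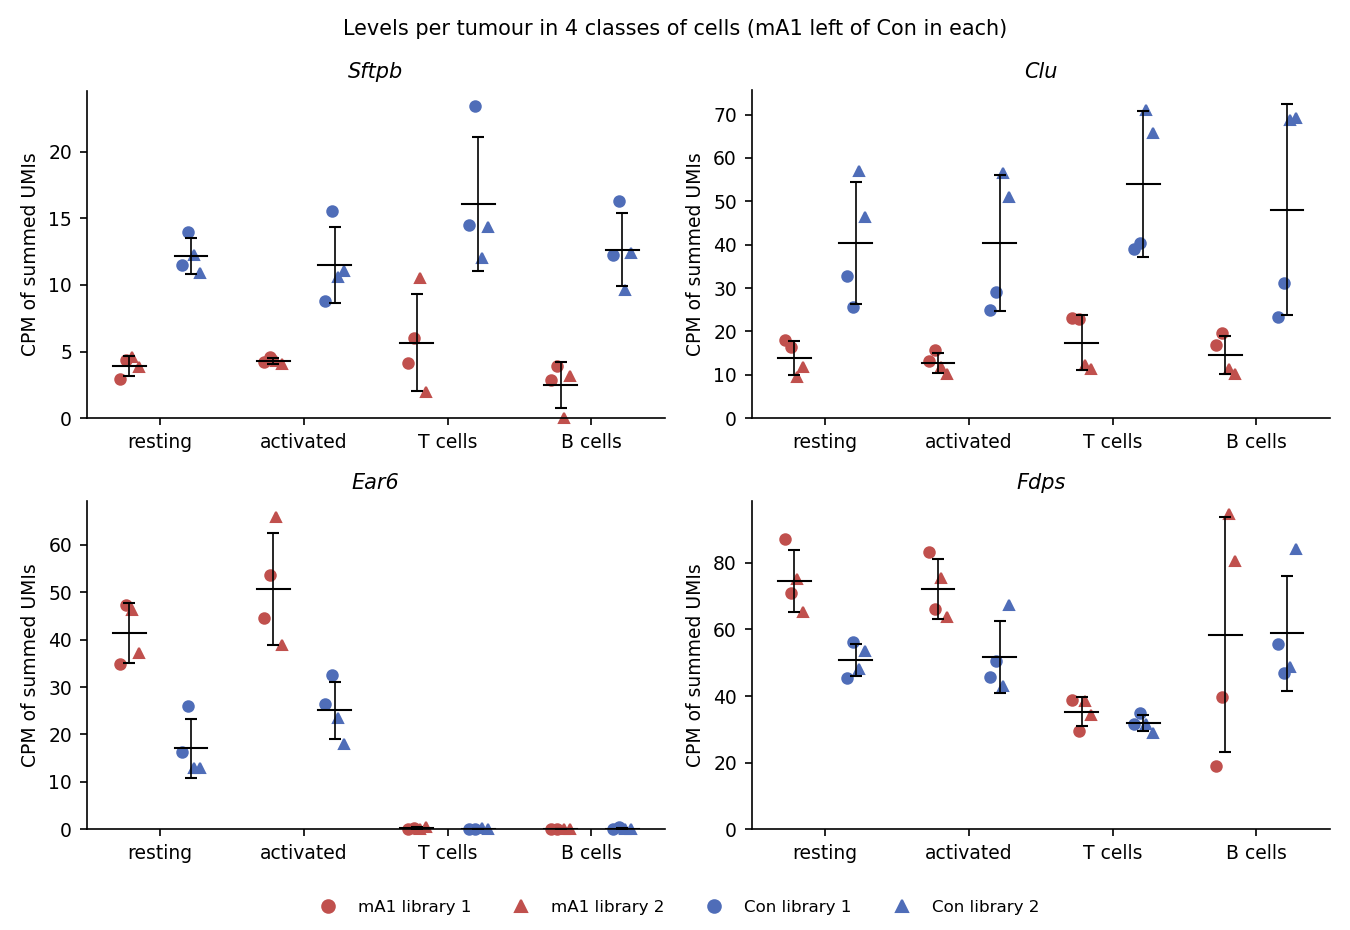
CPM of Sftpb, Clu, Ear6 and Fdps per tumour in resting and activated alveolar macrophages, T cells and B cells, mA1 (red) left of Con (blue), circles for library 1 and triangles for library 2, with mean and SD of 4 tumours. Sftpb and Clu are lower in mA1 in all 4 cell classes, while Ear6 is near 0 in T and B cells and its means in resting cells are 41.4 CPM in mA1 and 17.0 CPM in Con.

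The 10 genes with the smallest p among those higher in mA1 were Fdps, Phlda3, Ear6, Dok3, Slc39a2, Sqle, Ahnak2, Phgdh, Cyp51 and Vwf. None was called by edgeR (adjusted p from 0.145 to 0.410), and for none of them did T cells reach the level of resting cells in mA1. In 9 of the 10, all but the p53 target Phlda3, every mA1 tumour was above every Con tumour. The 10 were picked by smallest p in these same tumours, which favours genes without overlap. This count is therefore not a separate test. The largest fold change was that of Ear6, an eosinophil-associated RNase gene (chr14:51853768-51854643). It had 34.9, 47.4, 46.3 and 37.1 CPM in mA1 tumours and 16.4, 25.9, 13 and 12.9 CPM in Con tumours. The lowest mA1 tumour was above the highest Con tumour. The log2 fold change was 1.19 with SE 0.21 (edgeR adjusted p = 0.192; DESeq2 adjusted p = 0.000169).

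Ear6 was called by edgeR without hashtag 2 of Con library 1 (adjusted p = 0.00131) and without all of Con library 1 (0.000112). The latter run called 349 genes and kept only Con library 2 in Con, where sex and library cannot be told apart. Ear6 was not called with libraries as replicates (edgeR adjusted p = 0.9998) or without Con library 2 (0.149). It was not called by limma-voom with library as a random block either (adjusted p = 0.461). Its fold change was positive under every alternative run. Activated macrophages averaged 50.7 CPM of Ear6 in mA1 and 25.1 CPM in Con, T cells 0.200 and 0.0376 CPM, and epithelial cells 1.95 and 2.18 CPM. Ear6 has near-identical paralogs, and reads shared with Ear1 and Ear2 could not be traced in gene counts, so its level is uncertain. Ear1 had a fold change of the other sign, with 376, 255, 294 and 341 CPM in mA1 and 436, 265, 370 and 431 CPM in Con, overlapping (log2 -0.21).

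Slc39a2, a zinc transporter, averaged 124 ± 17.0 CPM in mA1 and 82.1 ± 12 CPM in Con, and Dok3, an adaptor that restrains receptor signalling, 105 ± 9.38 and 81.9 ± 3.97 CPM. Phgdh, the first enzyme of serine synthesis, averaged 256 ± 15.7 CPM in mA1 and 200.0 ± 16.7 CPM in Con (SD, n = 4 each). These are differences of 0.60, 0.39 and 0.38 on the log2 scale. Among the lower genes whose T cell level was under the resting level, Dnajb9, an endoplasmic reticulum chaperone, averaged 70.2 ± 4.76 CPM in mA1 and 96.3 ± 5.62 CPM in Con, and Fbxl5, the iron-sensing subunit of a ubiquitin ligase, 98.3 ± 7.52 and 138 ± 18.0 CPM. Csta2 had 1.32, 0.652, 1.25 and 0.818 CPM in mA1 tumours and 3.73, 16.1, 4.59 and 5.93 CPM in Con tumours. Its highest value was in Con library 1 hashtag 2, where the 6 neutrophil markers also summed highest, to 955 CPM against 45.6 to 351 CPM in the other 7 tumours, and the part of neutrophil RNA in it was not tested.

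Most genes of cholesterol synthesis had higher levels in mA1, without a call. Cells make cholesterol from acetyl-CoA through the mevalonate pathway, and the transcription factor SREBP-2 (Srebf2) switches its genes on together when sterols run low. Of 15 genes in the cholesterol and fatty acid synthesis list, all 15 were tested, 13 had a positive fold change and the median was 0.41 on the log2 scale. Over all genes tested 50.1% were positive and the median was 0.00027. None of the 15 was called. At an unadjusted p under 0.05, 9 were higher and 1, Scd1, was lower, against 5.92% of all genes in either direction, and in 4 the tumours did not overlap, against 3.84% of all genes. The list was chosen with earlier results of these data known, and Fdps, Sqle and Cyp51 were already among the genes of smallest p. These shares therefore describe the list and are not an independent test of it.

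By role, the early enzymes came first. Hmgcs1, HMG-CoA synthase, had 85.6, 73.6, 76.7 and 64.9 CPM in mA1 tumours and 45.4, 62.6, 67.7 and 43.5 CPM in Con tumours, overlapping only at the lowest mA1 and highest Con values (log2 0.45, SE 0.13). Fdps, farnesyl diphosphate synthase (chr3:89093588-89101967), had 87.2, 71.0, 75.2 and 65.2 CPM in mA1 tumours and 45.4, 56.2, 48.2 and 53.4 CPM in Con tumours. Its groups did not overlap (log2 0.58, SE 0.11, edgeR adjusted p = 0.145). It was called by DESeq2 (adjusted p = 0.0297) and by edgeR without Con library 1 (adjusted p = 0.0156). That edgeR run called 349 genes. Fdps was also called by edgeR with no low-count filter (0.000896) and with the replicate number as a block (0.0445). It was not called with libraries as replicates (edgeR adjusted p = 0.9998), without Con library 2 (0.149) or by limma-voom with the library block (0.571).

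The sterol-specific enzymes Sqle and Cyp51 had larger fold changes than Fdps and lower levels. Sqle, squalene epoxidase, had 21.4, 17.6, 20.2 and 19.4 CPM in mA1 tumours and 8.62, 12.3, 15.3 and 9.89 CPM in Con tumours. Cyp51, lanosterol demethylase, had 44.9, 42.0, 53.3 and 43.4 CPM in mA1 tumours and 21.8, 31.7, 34.4 and 14.8 CPM in Con tumours. In both genes every mA1 tumour was above every Con tumour, with log2 fold changes of 0.76 and 0.77. Fdft1, squalene synthase, had a log2 fold change of 0.51 and Srebf2 itself 0.36. Srebf2 had 45.2, 42.5, 39.0 and 37.4 CPM in mA1 and 30.2, 33.1, 35.2 and 30.7 CPM in Con, again without overlap.

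The fatty acid genes were mixed. Fasn, fatty acid synthase, had a log2 fold change of 0.41 and Acaca, acetyl-CoA carboxylase, 0.32, both overlapping. The desaturase Scd1 was lower, with 3.96, 1.79, 1.46 and 3.27 CPM in mA1 tumours and 2.58, 4.53, 12.6 and 7.91 CPM in Con tumours, and Scd2 was at -0.04. Scd1 was highest in Con library 2 and was the 1 gene of the list called between Con libraries. In activated macrophages 12 of the 15 genes were positive with a median of 0.17, and none was called, as against 4 of 10183 genes called there. The difference between resting and activated was not called for any of them.

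**Figure D4:**
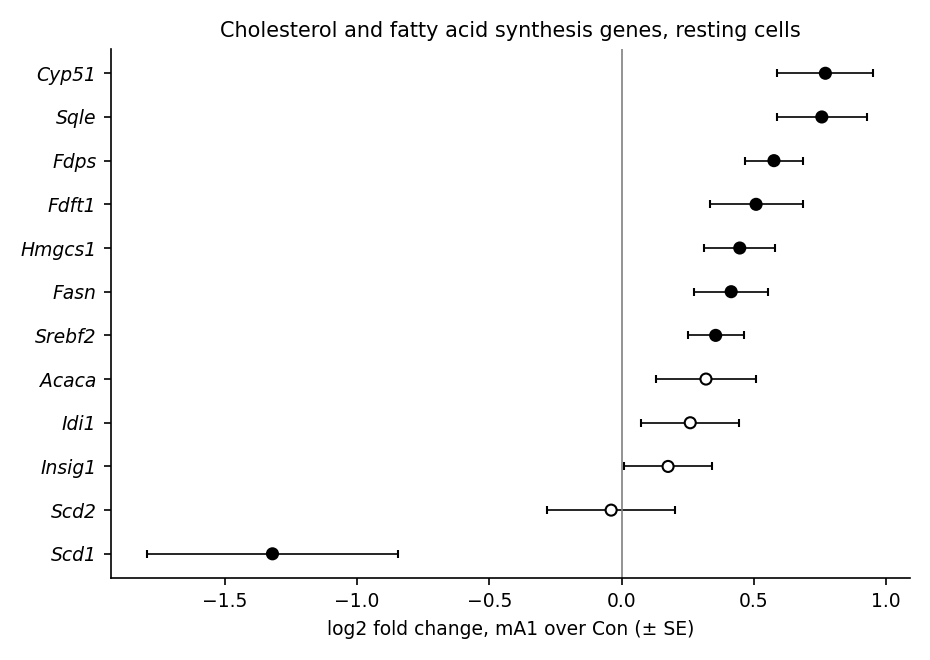
Log2 fold change, mA1 over Con, with its SE for 12 of the 15 cholesterol and fatty acid synthesis genes in resting cells, ordered by value. Filled points have an unadjusted edgeR p under 0.05 (7 higher and Scd1 lower), and open points do not. No gene was called after adjustment over all 9906 genes.

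Promoters of 2 of these genes are printed because most members of the list lay on the same side. Each shows the 250 bases before the start (RefSeq, build GRCm38.p6), 5′ to 3′ on the gene's strand, with capitals at matches on either strand to the sterol regulatory element TCACNCCAC or to the CCAAT box, which do not overlap here. The Cyp51 window, chr5:4104698-4104947 on the minus strand, holds 1 CCAAT match. The Hmgcs1 window, chr13:119690101-119690350 on the plus strand, holds 1 sterol element and 3 CCAAT matches.
Cyp51 promoter: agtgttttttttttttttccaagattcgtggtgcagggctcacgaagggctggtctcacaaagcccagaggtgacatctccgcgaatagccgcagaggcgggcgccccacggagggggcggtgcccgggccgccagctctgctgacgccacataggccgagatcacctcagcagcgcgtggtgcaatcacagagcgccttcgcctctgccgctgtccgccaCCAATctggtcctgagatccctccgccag
Hmgcs1 promoter: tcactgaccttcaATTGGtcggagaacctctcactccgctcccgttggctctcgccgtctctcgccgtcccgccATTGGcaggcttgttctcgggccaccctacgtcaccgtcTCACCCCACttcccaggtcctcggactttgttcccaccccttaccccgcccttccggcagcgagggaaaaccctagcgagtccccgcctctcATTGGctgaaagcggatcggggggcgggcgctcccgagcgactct
Of the 15 list genes, 7 had an entry in the promoter table. Of these, 1 held the sterol element and 6 held CCAAT. Over all 32851 promoters of the table, windows of the same length held them in 1.05% and 33.8%. A match describes letters in the window and is not shown to be a bound site.

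No identity gene was called between groups. Of 18 tested surface and secreted genes of alveolar macrophages, 9 were positive and 9 negative (median 0.01), and of 15 transcription factors 11 were positive (median 0.09). None was called. Bhlhe41, which sustains the alveolar macrophage programme, had a log2 fold change of 0.24, Pparg of 0.01 and Cebpb of -0.51. Of the 10 growth factor receptor and signalling genes tested, 7 were positive (median 0.08), and Stat5a, which relays the GM-CSF signal, was at 0.32. Csf2ra was at 0.12 and Tgfbr2 at 0.16.

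Lipid handling was split. Of 18 genes for uptake, storage and export, 9 were positive and 9 negative, and 5 had an unadjusted p under 0.05 (2 higher, 3 lower). Abca1 and Abcg1, the cholesterol exporters, had log2 fold changes of -2.71 and -0.31. Abca1 had 3.43, 4.4, 1.46 and 1.36 CPM in mA1 tumours and 2.87, 9.47, 44.7 and 23.7 CPM in Con tumours, and the high values were those of Con library 2. Abcg1 had 524, 490, 505 and 477 CPM in mA1 tumours and 516, 516, 770 and 739 CPM in Con tumours, with the same library high. Fatty acid oxidation genes were 6 positive and 6 negative with none at an unadjusted p under 0.05.

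Antigen presentation, chemokines and stress genes gave no call. All 8 tested MHC class II presentation genes were positive (median 0.21), and H2-DMa, a peptide loading factor, had the smallest unadjusted p of them in edgeR, with a log2 fold change of 0.19. Cd74, the invariant chain, had 4223, 4966, 3978 and 4596 CPM in mA1 tumours and 4619, 5255, 2039.6 and 3238 CPM in Con tumours. The 2 low values were both of Con library 2, and the groups overlapped. Of 12 chemokines 8 were negative (median -0.18), with Ccl9 at -0.79, and of 11 heat shock genes 10 were negative (median -0.11). Hsp90aa1, the inducible HSP90, had 255, 278, 275 and 293 CPM in mA1 tumours and 320, 323, 402 and 427 CPM in Con tumours, which did not overlap (log2 -0.38, SE 0.09, edgeR adjusted p = 0.329).

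The other lists lay near the median of all genes, except alternative activation. Medians were -0.05 for 14 interferon response genes, -0.05 for 11 MHC class I genes, -0.01 for 8 inflammatory cytokines, -0.04 for 15 NF-kB response genes and -0.12 for 15 immediate early genes. They were 0.04 for 13 lipid-associated macrophage genes, 0.06 for 16 lysosomal and antimicrobial genes, -0.05 for 14 antioxidant and iron genes and 0.03 for 14 phagocytosis receptors. They were 0.07 for 13 hypoxia and glycolysis genes, 0.05 for 15 respiratory chain genes and -0.06 for 10 checkpoint ligands. For 11 p53 target and cell cycle arrest genes the median was -0.01, and for 5 nuclear long RNAs 0.01. Alternative activation had 5 tested genes with a median of -0.40, of which Il4ra, the interleukin-4 receptor, was at -0.40. Of the p53 target and cell cycle arrest genes, Phlda3 was at 0.85 and Cdkn2a at -0.57. Among the 24 lists, the sterol list had the median farthest from 0, followed by alternative activation at -0.40 and MHC class II at 0.21.

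Whether the mA1 effect differed between resting and activated macrophages was tested as an interaction, with tumour as a block. The test called 6 of 10937 genes (0.0549%), with 553 at an unadjusted p under 0.05, and in all 6 the mA1-over-Con effect was more positive in resting cells. Of these, 3 are expressed by macrophages. Fn1, fibronectin, had 267, 278, 102 and 164 CPM in resting cells of mA1 tumours and 129, 259, 344 and 431 CPM in those of Con tumours. In activated cells it had 341, 441, 170 and 222 CPM in mA1 tumours and 370, 584, 755 and 955 CPM in Con tumours. The resting groups overlapped, and the activated mA1 and Con groups overlapped through Con library 1 hashtag 1 alone. The difference of effects was 0.71 with SE 0.10 on the log2 scale (edgeR adjusted p = 0.0106).

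Rhoc, a small GTPase of the cytoskeleton, had 162, 144, 144 and 150 CPM in resting cells of mA1 tumours and 77.3, 101, 138 and 132 CPM in those of Con tumours, without overlap. In activated cells it averaged 170.2 CPM in mA1 and 168 CPM in Con (difference 0.45, SE 0.08, edgeR adjusted p = 0.0152). Tnip3, an inhibitor of NF-kB signalling, averaged 4.13 CPM in mA1 and 2.97 CPM in Con in resting cells, and 6.92 and 19.5 CPM in activated cells (difference 1.92, SE 0.34, edgeR adjusted p = 0.0113). It was therefore lower in activated cells of mA1 tumours and near its low level in resting cells of both groups. T cells averaged 9.90 CPM of Tnip3 in mA1 and 5.82 CPM in Con, above resting cells in both. The part of T cell RNA in the Tnip3 call was not tested.

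The other 3 were genes of natural killer and cytotoxic T cells. Gzmb, a granzyme, had 30 UMIs in resting cells of mA1 tumours and 7 in those of Con tumours, against 6 and 48 UMIs in activated cells. Prf1, perforin, had 46 and 12 UMIs in resting and 6 and 30 in activated cells, and the receptor gene Klra4 37 and 3, and 15 and 32. Their differences were 5.37, 4.45 and 4.98 on the log2 scale (edgeR adjusted p = 0.0113, 0.0271 and 0.0242). T cells had 20.9 CPM of Gzmb in mA1 and 57.7 CPM in Con. The 5 natural killer markers summed to 64.5, 112, 1.88 and 1.91 CPM in resting cells of mA1 tumours and 7.75, 3.70, 48.9 and 17.8 CPM in those of Con tumours. They were high in mA1 library 1 and Con library 2, and their part in these 3 calls was not tested. These calls depended on the tool and the libraries. DESeq2 called 3 genes, of which 1, Fn1, was among the 6. Without mA1 library 1, 1 of the 6 was called, again Fn1, without Con library 2, 2 of them, without Con library 1, 4 and without mA1 library 2, 5. Without hashtag 2 of Con library 2 alone, 5 of the 6 were called, all but Fn1. Fn1 was called in every other run with a single tumour left out.

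Many genes were called between libraries of the same group. Between the libraries of Con, 663 of 9747 genes (6.8%) were called, 307 higher and 356 lower in library 2. Between those of mA1, 410 of 10163 (4.03%) were called, 126 higher and 284 lower in library 2. The 2 comparisons share no samples. Only 47 genes were called in both, 11.5% of the mA1 calls and 7.09% of the Con calls, and 33 of them had the same sign. Each of these tests sets 2 hashtagged tumours against 2 and has only the spread within libraries as its error, while the test between groups also carries the spread between libraries, so their counts cannot be compared. Library preparation, mouse and, in Con, sex cannot be told apart. Genes named from these calls outside the lists were chosen after their values were seen.

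Resting macrophages of mA1 library 2 had lower immediate early genes, which many cells switch on within minutes of a stimulus, dissociation included. Of the 16 genes of that list tested, 10 were lower in library 2 and none higher (median -0.49; 0.00365 over all genes). Fos, an AP-1 subunit, had 228 and 267 CPM in library 2 and 435 and 407 CPM in library 1. Zfp36, which destabilises cytokine mRNAs, had 75.0 and 69.8 CPM in library 2 and 149 and 165 CPM in library 1. Both were called (log2 -0.74 and -1.09, edgeR adjusted p = 3.25e-07 and 7.13e-10). In Con tumours Fos had 395 and 401 CPM in library 2 and 373 and 410 CPM in library 1.

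Also lower were the lipopolysaccharide co-receptor Cd14 (61.0 and 63.3 CPM in library 2, 146 and 132 CPM in library 1), Spp1, osteopontin (log2 -0.90), Cebpb (-0.80) and the chemokine Ccl3 (-0.76). Higher in mA1 library 2 were 4 of 13 interferon response genes, among them Stat2, Gbp2 and Gbp5, 3 heat shock genes and a set of histone genes. Hist1h1d had 105 and 82.4 CPM in library 2 and 25.1 and 29.5 CPM in library 1 (log2 1.80, edgeR adjusted p = 6.25e-10). Gm42418 and AY036118, both within ribosomal RNA, were higher too (log2 1.38 and 1.74). Part of this held in Con library 2. Hist1h1e was called higher in library 2 of both groups (log2 1.4 in mA1 and 1.39 in Con), while Hist1h1d and Gm42418 had log2 differences of 1.21 and 1.07 in Con that were not called (edgeR adjusted p = 0.0504 and 0.255). AY036118 was at -0.04 there. The part of ribosomal RNA reads in the library differences was not tested.

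Resting macrophages of Con library 2 had lower levels of many lysosomal, lipid-associated and glycolytic genes. Of 14 lipid-associated macrophage genes tested 7 were lower and 2 higher in library 2 (median -0.43; 0.00495 over all genes), of 15 lysosomal genes 6 were lower, and of 13 hypoxia and glycolysis genes 6 were lower with none higher. The 2 higher genes were the lipoprotein gene Apoc1, with 17.2 and 24.7 CPM in library 2 and 0 and 1.03 CPM in library 1, and Cd63 (log2 0.43). Lipa, lysosomal acid lipase, had 359 and 342 CPM in library 2 and 609 and 672 CPM in library 1 (log2 -0.94, edgeR adjusted p = 1.05e-06). Gpnmb, a lysosomal membrane glycoprotein, had 310 and 285 CPM in library 2 and 497 and 520 CPM in library 1. Ciita, the master activator of MHC class II genes, had 9.18 and 9.89 CPM in library 2 and 29.6 and 30.7 CPM in library 1 (log2 -1.75, edgeR adjusted p = 7.52e-05). The ferritin genes Fth1 and Ftl1 were lower as well, by -0.59 and -0.64.

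Of the 18 genes for lipid uptake, storage and export, 3 were called higher in Con library 2 (Cidec, Pltp and Abcg1) and 5 lower (median -0.07). Abca1 was not called there (edgeR adjusted p = 0.115). Tsc22d3, the glucocorticoid-induced leucine zipper, had 377 and 397 CPM in library 2 and 55.4 and 47.7 CPM in library 1, and 56.0 to 75.0 CPM in the mA1 tumours. Cidec, a lipid droplet protein, had 88.7 and 107 CPM in library 2 and 10.9 and 8.23 CPM in library 1. Both were called (log2 2.83 and 3.26, edgeR adjusted p = 4.22e-12 and 4.97e-10). Pltp, the phospholipid transfer protein, was higher by 1.56 and Abcg1 by 0.47. The RNA sensors Tlr7 and Tlr8, both X-linked, were higher by 1.24 and 1.54. For every gene of this comparison, Tsc22d3 and Cidec included, sex and library cannot be told apart. Krt19, an epithelial keratin, had 241 and 271 CPM in library 2 and 41.1 and 50.6 CPM in library 1, and 103 to 163 CPM in the mA1 tumours. Pparg had 187 and 164 CPM in library 2 and 104 and 98.6 CPM in library 1 (log2 0.73). MHC class II genes had a median of -0.86, with 2 of 8 called lower, Ciita and H2-DMb1.

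**Figure D5:**
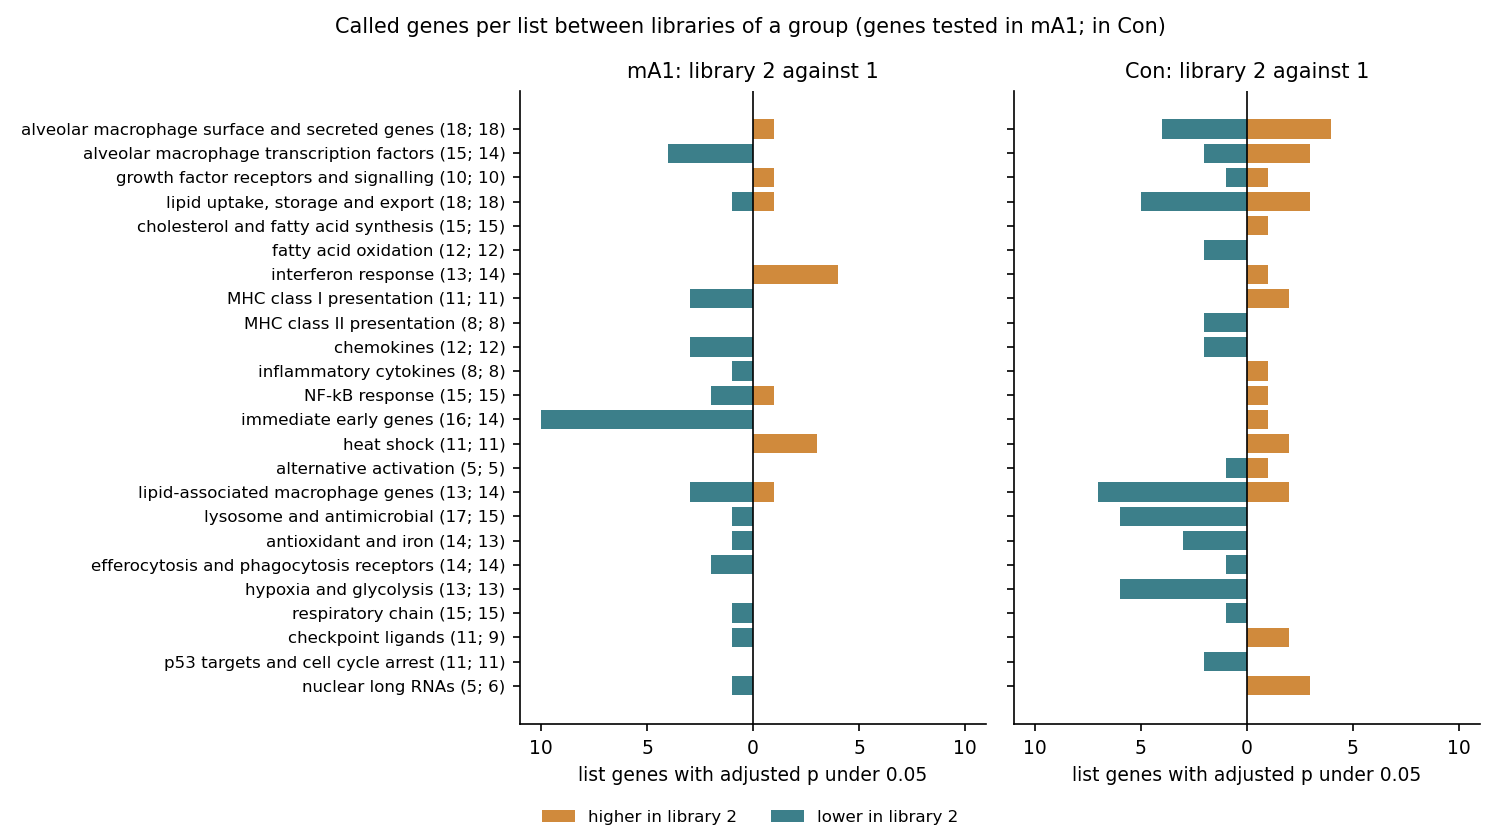
Number of genes of each list called between library 2 and library 1, for mA1 (left) and Con (right), higher in orange to the right and lower in teal to the left, with the numbers of genes tested in mA1 and in Con in brackets. Immediate early genes have 10 lower calls in mA1 and 0 lower calls in Con, and lipid-associated genes 3 lower calls in mA1 and 7 in Con. The cholesterol and fatty acid synthesis list has 1 call, in Con.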

How the data were processed

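Single-cell 3′ RNA libraries (10x Single Cell 3 Prime V3 kit, per the labels' protocols) were aligned and counted with Cell Ranger 6.0.1 on mm10, per the submitters' processing notes. The deposited files hold raw UMI counts per gene and cell and hashtag antibody counts per cell, from which all values here were computed. The reads were not reprocessed, and whether the counting handled reads shared by paralogs is not stated.

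Cells were kept and gated by the rule in the text, applied to the counts. Hashtags were called per library with a 2-component Gaussian mixture on log10 counts among cells with at least 5 counts of the tag. A tumour was a library and hashtag, so each group had 4, and only cells with exactly 1 hashtag entered tests. Doublets were otherwise removed only in an alternative that drops the top Scrublet scores. Counts were summed per tumour and gate, filtered with filterByExpr, scaled by TMM and tested with edgeR's robust quasi-likelihood test. P-values were Benjamini-Hochberg adjusted over all tested genes, with a threshold of 0.05. The interaction used tumour as a block. Single shares used an exact two-sided permutation test over the 8 tumours, which does not account for the 2 tumours that share a library. CPM values are UMIs per 1000000 of the summed cells, and 3 counts correspond to 0.489 to 2.97 CPM per tumour. Intervals and such floors cover counting error only. Exact binomial intervals are at 95%. The edgeR step was tested on simulated data.

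Genes named were those called or, with fewer than 10 calls, the 10 of smallest p in each direction, the 3 of smallest p in each of 24 lists (345 genes), Malat1 and Neat1. The 24 rule genes, Xist and Y-linked genes were left out. The description named the 15 genes of highest CPM, the 15 of largest ratio over other cells and the 10 highest and 10 lowest ratios over activated cells (all at 50 CPM or more), and the 20 most variable. The members and lists were chosen with earlier results of these data known. Alternatives were DESeq2, other scaling, filters and gates, limma-voom with library as a random block, whole libraries as replicates, and each tumour or library left out. Leaving out libraries in the interaction test was chosen after seeing the data. Tools were Python 3.11.15, numpy 2.4.6, pandas 2.3.3, scipy 1.17.1, scikit-learn 1.9.0, Scanpy 1.11.5, matplotlib 3.10.9, R 4.3.3, edgeR 4.0.16, limma 3.58.1 and DESeq2 1.42.0. Promoters came from RefSeq, build GRCm38.p6. A few genes are counted in the lists but are not reported here by name.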

Additional observations from a re-analysis of the deposited data

Results flagged for a closer look

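Of 184 groups of 4 tumours examined, 11 had 1 tumour far from the other 3, and chance gives about 5%. The interferon state held 2.61% of resting cells in hashtag 1 of mA1 library 2 against 0% to 0.402% in the other mA1 tumours, and Cxcl10, 1 of the 8 genes that define the state, had 57.7 CPM there against 3.43 to 7.17 CPM. Hashtag 1 of Con library 2 had 2.07% against 0.901% to 1.10%. In the mA1 group, Dnajb9 was 77.3 CPM in hashtag 1 of library 2 (others 67.6 to 68.1 CPM) and Stat5a 20.7 CPM in hashtag 2 of library 2 (24.1 to 24.3 CPM). In hashtag 2 of mA1 library 1, Ccl9 was 221 CPM (156 to 160 CPM) and Arg1, arginase, 38.4 CPM (0.545 to 5.02 CPM). Cdkn2a was 53.4 CPM in hashtag 1 of mA1 library 1 (38.7 to 40.4 CPM). In the Con group, Psmb8 was 235 CPM in hashtag 2 of library 1 (221 to 223 CPM), and in hashtag 1 of library 2 Fcgr4 was 117 CPM (96.2 to 98.9 CPM) and Eno1 119 CPM (160 to 164 CPM).

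The mA1-over-Con effect differed between resting and activated macrophages for 6 genes by edgeR's interaction test. The differences were 0.71 for Fn1, 0.45 for Rhoc, 1.92 for Tnip3, 4.98 for Klra4, 4.45 for Prf1 and 5.37 for Gzmb on the log2 scale.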

How the results depend on the processing

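The count of genes called between mA1 and Con was 17 with DESeq2, 22 with no low-count filter, 0 with libraries as replicates and 7 with the replicate block, and 0 to 349 when 1 tumour or library was left out. Whether the replicate numbers of the labels pair the samples is not known, so the block is only an alternative. The correlation of deviations between libraries of the same number was 0.050, which cannot decide this with 2 libraries per group. The interaction count was 3 with DESeq2 (1 shared with the 6), 13 with hashtags at 80% of counts and 3 to 39 with a tumour or library left out. DESeq2 called 217 genes between Con libraries and 97 between mA1 libraries. The cause was not tested in any of these.

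Differences of shares changed sign, without passing the test. For resting cells among alveolar macrophages the difference was -1.75 points with at most 1 activation gene and ran from -1.82 to 4.98 over leave-outs. For the interferon state it was 0.0615 with at most 1 activation gene, 0.00773 with at least 3 list genes and -1.12 to 0.0465 over leave-outs. For the chemokine state it was 2.18 at 5000 UMIs, 0.0571 with at least 3 list genes and -4.38 to 2.48 over leave-outs.

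Of 87 named genes, 68 kept their sign throughout. Log2 fold changes that crossed 0 over leave-outs ran from -0.0871 to 0.40 for Acaa2, -3.33 to 2.10 for Arg1, -0.73 to 0.0347 for Ccl3, -0.0477 to 0.34 for Cox4i1, -0.0404 to 0.42 for Ctsl, -0.27 to 2.41 for Cxcl10, -0.0021 to 0.23 for Cyba, -0.0853 to 0.76 for Gpnmb, -0.0532 to 0.60 for H2-DMb1, -0.0288 to 0.16 for Hadha, -0.20 to 0.0175 for Hadhb, -0.13 to 0.36 for Il1a, -0.0207 to 0.23 for Kcnq1ot1, -0.24 to 0.13 for Malat1, -0.18 to 0.0867 for Neat1, -0.60 to 0.0367 for Stat5b and -1.12 to 0.0841 for Tap2. Arg1 was -0.54 with limma-voom, Ifi27l2a 0.0797 and Il1a -0.28 with at most 1 activation gene, Il1a -0.25 and Psmb8 -0.000727 with the looser gate, and Neat1 0.0141 at a mitochondrial limit of 10%. Genes near 3 counts per tumour, such as Csta2 and S100a14, are limited by depth.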
